A study of Mus musculus with 12 samples.

Results

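The Ifi200 family is a block of neighbouring genes on mouse chromosome 1 that encode interferon-inducible proteins. It holds 7 listed genes, of 18193 genes measured in the series, and was read from 12 of the 45037 probe sets, namely every probe set whose platform symbol is or includes Ifi202b, Ifi203, Ifi204, Ifi205, Mnda, Aim2 or Mndal. Of these 7 genes, 5 (Ifi202b, Ifi203, Ifi204, Mndal and Aim2) had a probe set naming them alone. Ifi205 was named only together with other genes, and no probe set carries the symbol Mnda in the annotation used. Of the 12 probe sets, 6 named 1 gene and 6 named several. The family was chosen by the difference of Ifi202b between the single-allele genotypes described next, so the values of its members in that comparison are given as a description, with no test.

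Mammary tissue was taken 6 days after a mating plug from 12 mice, 3 of each of 4 genotypes, and its total RNA was hybridized to Affymetrix mouse arrays. Stat5a and Stat5b are 2 closely related transcription factors activated by prolactin and other cytokines, encoded side by side on chromosome 11. Mice labelled Stat5a-/- lack both Stat5a alleles and keep 2 Stat5b alleles. Mice labelled Stat5ab+/null carry 1 chromosome without both genes and so keep 1 allele of each. The genotype labelled Stat5abnull/Stat5b- keeps 1 Stat5a allele (called single-Stat5a here), and Stat5abnull/Stat5a- keeps 1 Stat5b allele (single-Stat5b). The strain background was mixed in all groups and drew on FVB, the 129 strains and C57BL/6. Letters in the sample titles of both 2-allele genotypes disagree with these allele numbers if they count intact alleles, and the genotype labels were followed. The labels also mention sorted cells and an interferon inducer, PolyIC, used to switch on Mx1-Cre. Whether these mice received it is not settled, and its part in any result on these interferon-inducible genes was not tested.

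Members of the family share a DNA-binding HIN domain, and most also carry a pyrin domain through which proteins of this kind assemble with each other. Aim2 binds DNA in the cytosol and builds an inflammasome with the adaptor Pycard and caspase-1, whereas Ifi204 takes part in cytosolic DNA sensing upstream of the adaptor Sting1. Ifi202b lacks the pyrin domain and is known as an inhibitor of Aim2 in the mouse, and its level is known to differ among inbred strains. Transcripts of the family are found in macrophages and other immune cells, which the mammary gland also holds. In bulk tissue, fewer cells of a type and less RNA per cell cannot be told apart.

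The promoters of 4 genes of the block are printed because their probe sets showed the differing patterns described further on. Ifi202b was low only in single-Stat5a arrays, Ifi209 (1 of its 2 probe sets) and Ifi213 were highest in single-Stat5a arrays, and Mndal stood at like levels in both single-allele genotypes. Each window runs from 250 bases before to 50 bases after the annotated start, in build GRCm38.p6 as given by RefSeq, whose reference is not the genome of these mixed-background mice. Capitals mark a STAT site (TTCNNNGAA, which reads the same on both strands) or the core of an interferon-stimulated response element (2 copies of GAAA with any 2 bases between them, or of TTTC on the other strand). Ifi202b lies at chr1:173982795-173983094, Ifi213 at chr1:173599223-173599522 and Mndal at chr1:173880138-173880437, all on the minus strand, and Ifi209 at chr1:173630609-173630908 on the plus strand.
Ifi202b: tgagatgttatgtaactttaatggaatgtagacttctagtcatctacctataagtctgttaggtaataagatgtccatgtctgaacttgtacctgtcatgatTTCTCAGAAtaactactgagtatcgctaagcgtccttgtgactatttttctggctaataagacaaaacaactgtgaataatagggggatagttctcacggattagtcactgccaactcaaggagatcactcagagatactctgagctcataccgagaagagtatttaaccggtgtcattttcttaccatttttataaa
Ifi209: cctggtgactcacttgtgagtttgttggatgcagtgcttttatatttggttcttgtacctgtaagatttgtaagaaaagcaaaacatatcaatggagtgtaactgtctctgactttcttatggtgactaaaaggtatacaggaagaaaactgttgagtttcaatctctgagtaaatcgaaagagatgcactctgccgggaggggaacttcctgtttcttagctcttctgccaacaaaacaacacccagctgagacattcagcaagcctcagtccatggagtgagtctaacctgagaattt
Ifi213: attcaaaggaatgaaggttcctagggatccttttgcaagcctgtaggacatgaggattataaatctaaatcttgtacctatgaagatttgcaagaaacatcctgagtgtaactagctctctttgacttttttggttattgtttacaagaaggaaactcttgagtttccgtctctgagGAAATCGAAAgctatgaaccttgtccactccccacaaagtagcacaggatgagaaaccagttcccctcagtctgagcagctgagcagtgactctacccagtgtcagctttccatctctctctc
Mndal: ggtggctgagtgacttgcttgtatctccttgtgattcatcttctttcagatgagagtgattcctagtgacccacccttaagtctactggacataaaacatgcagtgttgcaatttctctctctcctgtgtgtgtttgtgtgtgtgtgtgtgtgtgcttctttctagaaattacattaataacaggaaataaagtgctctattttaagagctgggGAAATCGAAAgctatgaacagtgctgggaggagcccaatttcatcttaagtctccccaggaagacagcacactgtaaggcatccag

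The table of promoters held 10 windows for 8 genes of the block (Aim2, Ifi213, Ifi209, Ifi207, Mndal, Ifi203, Ifi202b and Ifi205). An interferon-stimulated response element core was present in 6 of the 10 windows, from 5 genes, against 3.44% of 32851 mouse promoter windows of the same length. Its match GAAATCGAAA stood at -73 to -64 from the start of Ifi213, at -41 to -32 for Ifi207, at -36 to -27 for Mndal and at -35 to -26 for Ifi203. The windows of Ifi202b, Ifi209 and Aim2 held no match to this core. The 10 windows are not independent, since those of Mndal overlap each other, as do those of Ifi203. Mndal and Ifi203 also share a near-identical stretch around the core, so the share of windows is a description only. The STAT site occurred in 1 window, that of Ifi202b, as TTCTCAGAA at -148 to -140, and in 8.3% of all windows. These matches describe the reference letters only, and neither binding nor the sequence of these mice was measured.

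Before the members, a few facts of the series bear on every value. Arrays of the 2-allele genotypes (Stat5a-/- and Stat5ab+/null) correlated at 0.818 to 0.883 with those of the single-allele genotypes. Within each of these sets of arrays, correlations between genotypes were 0.948 to 0.994. The actin control's 3' signal exceeded its 5' signal by 0.13 to 0.27 (log2) in the 2-allele arrays and by 2.16 to 3.78 in the single-allele arrays. The number of alleles and the array set therefore cannot be told apart, and differences across the sets are given as values only. Within the single-allele set Stat5a itself was lower in single-Stat5b arrays by 1.23 (10.98 against 12.21, probe set 1421469_a_at, limma adjusted p = 0.00231), in the direction of the labels. The other Stat5a probe set, 1450259_a_at, differed by -0.24 (limma adjusted p = 0.777), and those of Stat5b by 0.64 (1422102_a_at, limma adjusted p = 0.0539) and 0.20 (1422103_a_at, limma adjusted p = 0.738). Between the arrays labelled Stat5a-/- and Stat5ab+/null, the Stat5a probe sets were 0.39 and 0.56 higher and the Stat5b probe sets 0.25 and 0.31 lower in those labelled Stat5a-/-, against the labels. None of these 4 differences passed adjustment (adjusted p = 1.0). Where these probe sets lie relative to the deleted sequence was not analysed here.

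Ifi202b, the inhibitor of Aim2, was high in 3 genotypes and low in single-Stat5a. The suffix of both Ifi202b probe sets (s_at) marks probes that may be shared by several transcripts. Probe set 1421551_s_at, whose annotation names Ifi202b alone, had log2 signals of 12.02, 11.99 and 11.87 in the arrays labelled Stat5a-/-. In Stat5ab+/null arrays it had 12.21, 12.14 and 11.87. In single-Stat5a arrays it had 6.09, 5.05 and 5.65, and in single-Stat5b arrays 10.84, 11.54 and 11.66. The 3 single-Stat5a arrays thus lay far below all others, and the nearest array of another genotype was 10.84. The single-Stat5b mean of 11.35 ± 0.44 (SD, n = 3) exceeded the single-Stat5a mean of 5.60 ± 0.52 by 5.75 (SE 0.26), a 53.8-fold difference in signal. In order of level, Stat5ab+/null (12.08 ± 0.18) and Stat5a-/- (11.96 ± 0.08) overlapped, single-Stat5b came next without overlapping either, and single-Stat5a was lowest.

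The other Ifi202b probe set, 1457666_s_at, also names LOC100044068 and showed the same arrangement. Its log2 signals were 11.30, 11.36 and 11.12 in the arrays labelled Stat5a-/- and 11.36, 11.11 and 10.79 in Stat5ab+/null arrays. Single-Stat5a arrays gave 3.97, 3.80 and 4.40, and single-Stat5b arrays 11.71, 12.29 and 11.87. The single-Stat5b arrays were the highest here, unlike on the first probe set, and single-Stat5a arrays were again apart from all others. The difference between the single-allele genotypes was 7.90 (SE 0.21), or 239.0-fold. Of all 45037 probe sets, 1457666_s_at had the highest such difference and 1421551_s_at the ninth highest. Differences over 5 in size occurred in 23 probe sets, 0.0511% of all. The single-Stat5a means of both probe sets (5.60 and 4.06) lay below the 30th percentile of probe set means (6.04), so both folds rest on dim signals. How closely these folds follow transcript amounts was not tested.

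**Figure D1:**
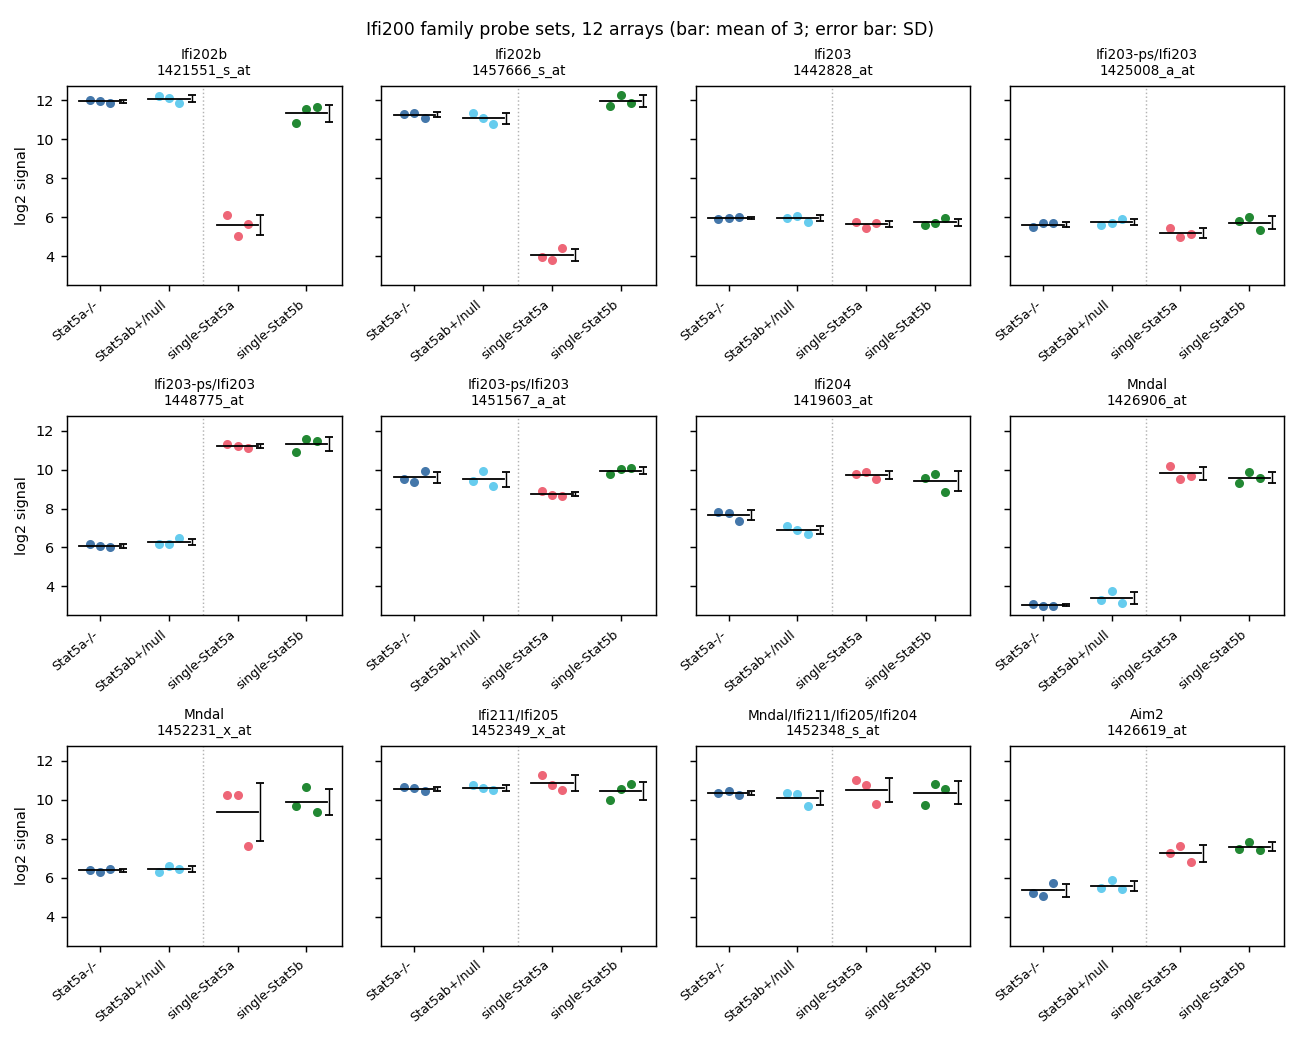
Log2 signal of the 12 Ifi200 family probe sets (vertical axis) in each of the 12 arrays, by genotype (horizontal axis). Points are arrays, horizontal bars the mean of 3, error bars the SD, and the dotted line separates the 2-allele from the single-allele arrays. Both Ifi202b probe sets drop only in single-Stat5a (means 5.60 and 4.06), while Mndal 1426906_at stands near 3 in the 2-allele arrays and near 10 in both single-allele genotypes.

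No other member showed a step of that size between the single-allele genotypes. Over the 10 probe sets that do not name Ifi202b, single-Stat5b minus single-Stat5a ran from -0.41 to 1.19, and 9 of the 10 were under 1 in size. With Ifi202b included, 8 members were above 0 and 4 below, with a median of 0.23 against 0.02 over all probe sets. As a description only, 3 members, all higher in single-Stat5b, had groups that did not overlap, as did 11.9% of all probe sets. The same 3 lay past the threshold (adjusted p under 0.05) that 2.70% of all probe sets passed, 1.06% as higher. This is no test of the members, and nothing is read from these counts, since the comparison chose the family.

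Ifi203, the gene next to Ifi202b in gene order, was read by 4 probe sets whose patterns differed. The member outside Ifi202b with groups that did not overlap was 1451567_a_at, which names Ifi203 together with its pseudogene Ifi203-ps, LOC100862473 and LOC102641031. Its log2 signals were 8.88, 8.71 and 8.66 in single-Stat5a arrays and 9.75, 10.02 and 10.06 in single-Stat5b arrays. The single-Stat5b values were higher by 1.19 (SE 0.21), or 2.28-fold. In the 2-allele set this probe set ranged from 9.38 to 9.94 (Stat5a-/-) and from 9.17 to 9.92 (Stat5ab+/null), above every single-Stat5a array.

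The remaining Ifi203 probe sets gave smaller differences between the single-allele genotypes. Probe set 1442828_at, the sole probe set naming Ifi203 alone, was dim, with 5.75, 5.47 and 5.70 in single-Stat5a arrays and 5.61, 5.69 and 5.96 in single-Stat5b arrays, a difference of 0.11 (SE 0.16). Probe set 1425008_a_at, which also names Ifi203-ps and LOC100862473, had 5.46, 4.97 and 5.14 against 5.83, 5.99 and 5.35, a difference of 0.53 (SE 0.20) with overlapping groups. Both had means below the 30th percentile of all probe sets, as 2 of the 12 members did. Probe set 1448775_at, which names the same genes as 1425008_a_at, was bright in both single-allele genotypes. It had 11.33, 11.21 and 11.09 in single-Stat5a and 10.91, 11.57 and 11.45 in single-Stat5b arrays, a difference of 0.10 (SE 0.18) that was -0.14 with array weights and -0.03 without single-Stat5b array 2. Which transcript each of these probe sets detects cannot be told apart where near-identical copies share probes.

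Mndal, a family member that carries a pyrin and a HIN domain, did not follow Ifi202b. Probe set 1426906_at had log2 signals of 10.18, 9.53 and 9.69 in single-Stat5a arrays and 9.32, 9.87 and 9.59 in single-Stat5b arrays. These overlap, and the difference was -0.21 (SE 0.22). Probe set 1452231_x_at, whose suffix marks probes that may bind other transcripts, had 10.27, 10.22 and 7.63 against 9.68, 10.64 and 9.35. Its difference was 0.52 (SE 0.56), and it was -0.35 without single-Stat5a array 3, which held the lowest value.

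Ifi204, the DNA sensor that acts through Sting1, was likewise at similar levels in both single-allele genotypes. Its probe set 1419603_at had 9.77, 9.90 and 9.49 in single-Stat5a arrays and 9.59, 9.78 and 8.85 in single-Stat5b arrays, a difference of -0.31 (SE 0.24). Aim2, the inflammasome sensor, had 7.29, 7.65 and 6.78 against 7.45, 7.85 and 7.44 on probe set 1426619_at, a difference of 0.34 (SE 0.25). The ranges overlapped for both genes.

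Ifi205 could be read only through probe sets shared with its relatives. Probe set 1452349_x_at, which names Ifi211 and Ifi205, had 11.28, 10.78 and 10.51 in single-Stat5a arrays and 9.97, 10.56 and 10.82 in single-Stat5b arrays. Probe set 1452348_s_at, which names Mndal, Ifi211, Ifi205 and Ifi204, had 10.99, 10.74 and 9.80 against 9.73, 10.82 and 10.54. Both had overlapping groups, with differences of -0.41 (SE 0.24) and -0.14 (SE 0.33), the second of which turned to 0.10 without single-Stat5a array 1 and to 0.17 without single-Stat5b array 1. The gene table used lists Mnda as an older name of Ifi211, so these are the nearest readings for that symbol.

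The question of whether neighbours of Ifi202b share its step was then put to genes that are not members, which were tested. Between the outermost members of the block lie 3 measured genes of the same family, Ifi213, Ifi209 and Ifi207, read by 5 probe sets. In all 5 the single-Stat5b mean was below the single-Stat5a mean, opposite to Ifi202b. Of the 5, 3 passed the test, as did 2.70% of all probe sets. Ifi209 probe set 1435330_at had log2 signals of 9.42, 9.05 and 9.38 in single-Stat5a arrays and 5.69, 5.55 and 5.24 in single-Stat5b arrays. Every single-Stat5a array lay above every other array of the study, where the highest was 6.86. The difference was -3.79 (SE 0.32), a 13.9-fold lower signal in single-Stat5b (limma adjusted p = 1.89e-05).

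Another Ifi209 probe set, 1435331_at, gave a different picture. It had 7.77, 7.40 and 7.25 in single-Stat5a arrays and 6.27, 6.33 and 6.93 in single-Stat5b arrays, a difference of -0.96 (SE 0.68, limma adjusted p = 0.651). Its highest values were in the 2-allele set, 9.10 in Stat5ab+/null array 2 and 8.48 in array 3 of those labelled Stat5a-/-. Those 2 arrays also had the highest mean signal of the B and plasma cell list, 11.32 and 10.96, against 6.43 to 9.12 in the other 10 arrays. They were the highest for the dendritic cell list too (8.71 and 8.08). Within the 2-allele set they were the highest for the T cell list (9.23 and 8.19) and the skeletal muscle list (8.67 and 9.73). These lists cannot be told apart here, and the part of each was not tested. With the B and plasma cell mean as a covariate, the Stat5a-/- minus Stat5ab+/null difference of 1435331_at went from -0.48 to 0.21, and without Stat5ab+/null array 2 it was 0.35.

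**Figure D2:**
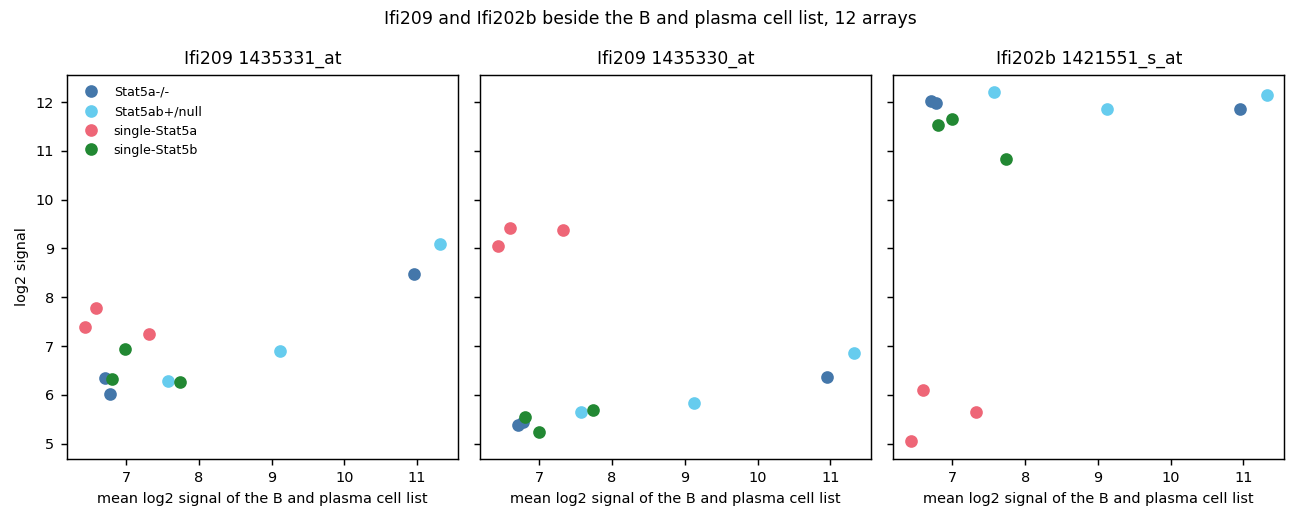
Log2 signal of Ifi209 (2 probe sets) and Ifi202b (vertical axes) against the mean log2 signal of the B and plasma cell list (horizontal axis), 1 point per array, coloured by genotype. The 2 arrays with the highest list mean (10.96 and 11.32) hold the highest values of Ifi209 1435331_at (8.48 and 9.10), whereas Ifi202b is low in the 3 single-Stat5a arrays, whose list means of 6.43 to 7.32 lie beside those of other genotypes.

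Ifi213, another HIN domain gene, was lower in single-Stat5b on both of its probe sets. Both were dim, with means over all arrays of 5.12 (1437636_at) and 3.9 (1444405_at). These lie below the 30th percentile of probe set means (6.04), so the filter at that level leaves Ifi213 out. Probe set 1437636_at had 6.61, 6.26 and 6.30 in single-Stat5a arrays, a mean of 6.39 ± 0.19 (SD, n = 3). The single-Stat5b arrays had 4.79, 4.78 and 4.61, a mean of 4.73 ± 0.10. The difference was -1.66 (SE 0.16), or 3.16-fold (limma adjusted p = 6.86e-05). The 2-allele arrays ranged from 4.54 to 4.93, within or near the single-Stat5b values. Probe set 1444405_at had 5.60, 4.34 and 4.94 against 3.70, 3.49 and 3.66, a difference of -1.34 (SE 0.25, 2.54-fold, limma adjusted p = 0.00923). In a fit of only the groups compared, that p was 0.119. Ifi207 did not pass, with 10.52, 10.32 and 9.87 against 9.77, 10.04 and 9.67 and a difference of -0.41 (SE 0.25, 95% interval -0.95 to 0.13, limma adjusted p = 0.572).

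Outside the block, the 20 measured genes on each side (60 probe sets) mostly differed little between the single-allele genotypes. Of these 60 probe sets, 1 was called, for Slamf8, where 2.70% of all probe sets were called. A difference under 1 in size was found in 56, given as a description only, since that share was not taken over all probe sets. The nearest measured gene on the left, the cell adhesion gene Cadm3, differed by 0.22 on its brightest probe set 1418921_at (SE 0.32, limma adjusted p = 0.851). Its other probe sets differed by 0.64 (1418922_at, limma adjusted p = 0.382) and, without overlap of the groups, by 0.44 (1449272_at, limma adjusted p = 0.316). The nearest on the right, Mptx1, differed by -0.45 (SE 0.17, limma adjusted p = 0.251). On the right side no gene was called, and differences ran from -1.15 to 0.63. On the left side they ran from -2.93 to 1.36, the lowest being that of the muscle gene Casq1, with 8.86, 12.83 and 8.07 in single-Stat5a and 6.08, 6.25 and 8.66 in single-Stat5b arrays. The mean of the skeletal muscle list moved with it, at 9.65 to 13.44 in single-Stat5a and 7.71 to 10.70 in single-Stat5b arrays, and its part in the Casq1 value was not tested.

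Slamf8, a receptor of the SLAM family found on macrophages and other myeloid cells, was lower in single-Stat5b. It had log2 signals of 8.28, 8.28 and 8.20 in single-Stat5a and 6.31, 5.53 and 7.44 in single-Stat5b arrays, which did not overlap. The difference was -1.83 (SE 0.36), or 3.54-fold (limma adjusted p = 0.0152). The mean of the macrophage and monocyte list was 10.84 to 11.07 in single-Stat5a and 10.42 to 11.33 in single-Stat5b arrays, and with it as a covariate the difference was -1.61 (limma adjusted p = 0.00854). The call was lost without single-Stat5a array 1, 2 or 3 (limma adjusted p = 0.0562, 0.0544 and 0.0502), without single-Stat5b array 1 (0.0585), and in the fit of only the groups compared (0.108).

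Over the 43 neighbours, taken with 1 probe set per gene, 2 were called between the single-allele genotypes, Slamf8 and Ifi213, both lower in single-Stat5b. That is 4.65%, where 2.32% of 18193 genes were called, 1.39% as lower. Ifi209 entered this count of genes through its brightest probe set, 1435331_at, and not through the called 1435330_at. At an unadjusted limma p under 0.05 there were 12 of the 43, against 11.8% of all genes. Over their 65 probe sets, 4 were called (6.15%, against 2.70% of all probe sets), all lower (1.65% of all), and 12 did not overlap (18.5%, against 11.9%). The count of 2 genes fell to 1 without single-Stat5a array 2 or 3 or single-Stat5b array 1, and rose to 4 without single-Stat5b array 2 and to 5 without array 3. No neighbour was called higher in single-Stat5b, the direction of Ifi202b. Along the whole of chromosome 1, 27 windows of 40 measured genes (21 in the last) held 0 to 3 called genes each, with a median of 1.0 and 18 of 1061 genes called in all (1.7%). The windows that hold the neighbours had 1 called gene each, again with Ifi209 read by 1435331_at.

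**Figure D3:**
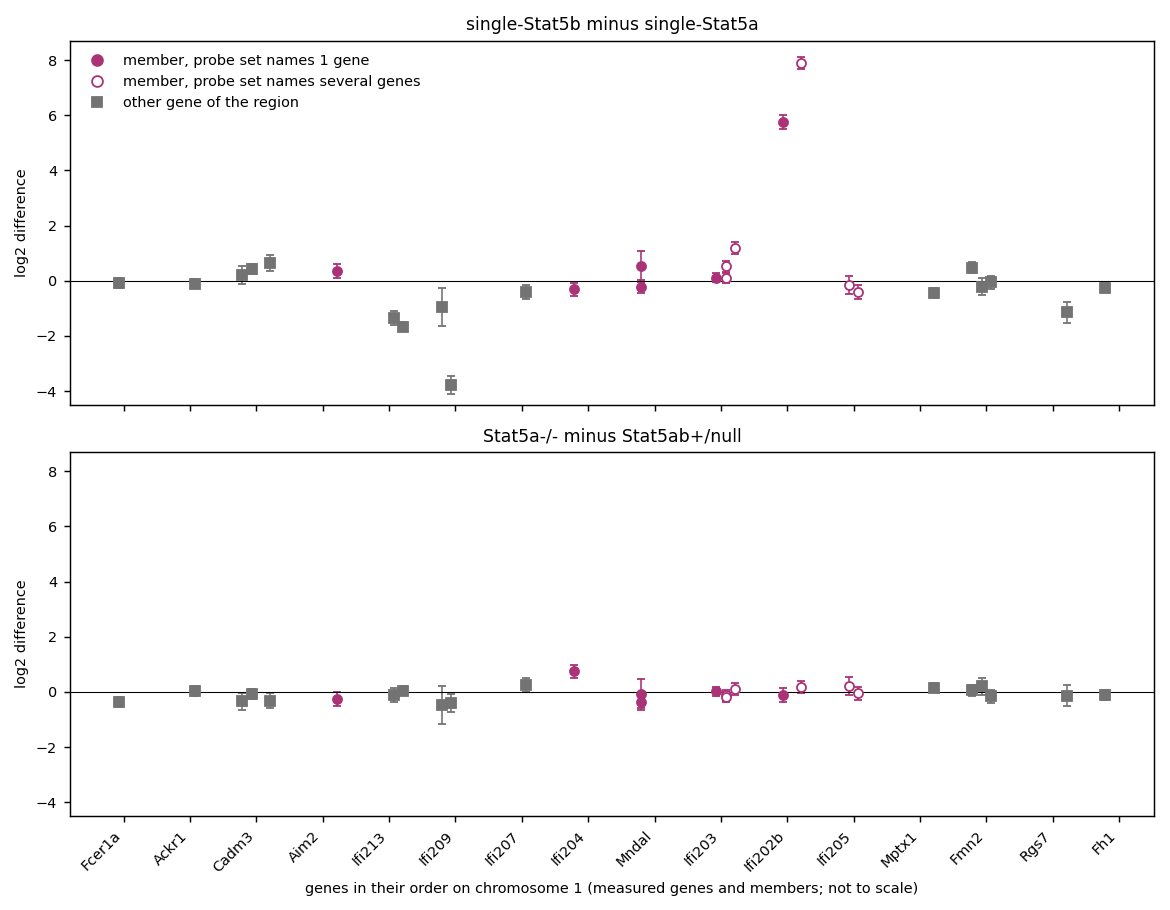
Log2 difference (vertical axis, error bars are the SE) of Ifi200 family members (circles, open where the probe set names several genes) and other measured genes (squares) in gene order along chromosome 1 (horizontal axis, not to scale). Upper panel, single-Stat5b minus single-Stat5a; lower panel, Stat5a-/- minus Stat5ab+/null. Ifi202b stands at 5.75 and 7.90 in the upper panel, Ifi209 reaches -3.79, and all members lie between -0.37 and 0.75 in the lower panel.

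The genes whose pattern over the 12 arrays was closest to that of Ifi202b lay on other chromosomes. Closeness was the root mean square distance between values centred on each gene's mean, over 18192 other genes with 1 probe set each. The 5 closest were Hal (0.46, chromosome 10), H2-Ea (0.87, chromosome 17), AI506816 (0.96, chromosome 5), Ifi44l (1.06, chromosome 3) and Gbp2b (1.22, chromosome 3). For scale, the 2 Ifi202b probe sets lay 0.83 apart. Hal, which encodes histidine ammonia-lyase, had means of 11.43 in the arrays labelled Stat5a-/-, 11.64 in those labelled Stat5ab+/null, 5.18 in single-Stat5a arrays and 10.38 in single-Stat5b arrays. H2-Ea, an MHC class II chain gene, had 13.49, 13.46, 5.24 and 13.02 in the same order. Ifi44l, an interferon-induced gene, had 8.48, 8.53, 4.45 and 8.33. All 5 were lowest in single-Stat5a, as the measure selects.

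Among these 18192 genes the relatives of Ifi202b ranked from 5665 to 17950 by this distance. Ifi203 was at 2.59 (rank 5665), Ifi209 at 3.03 (14284), Aim2 at 3.37 (16721), Ifi213 at 3.44 (17024), Ifi207 at 3.57 (17440), Ifi204 at 3.65 (17607) and Mndal at 3.93 (17950). Each is the gene's brightest probe set that names it alone. For Ifi203 that is the dim 1442828_at, and for Ifi209 it is 1435331_at, not 1435330_at. The distance covers all arrays, so the step between the array sets enters it. Single-allele means exceeded those of the other set by 3.22 for Mndal (1452231_x_at), 2.28 for Ifi204, 2.07 for Ifi207 and 1.94 for Aim2. The same difference was 0.87 for Ifi213, -0.19 for Ifi209 and -0.25 for Ifi203. The ranks therefore cannot tell whether a gene followed Ifi202b within the single-allele set.

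**Figure D4:**
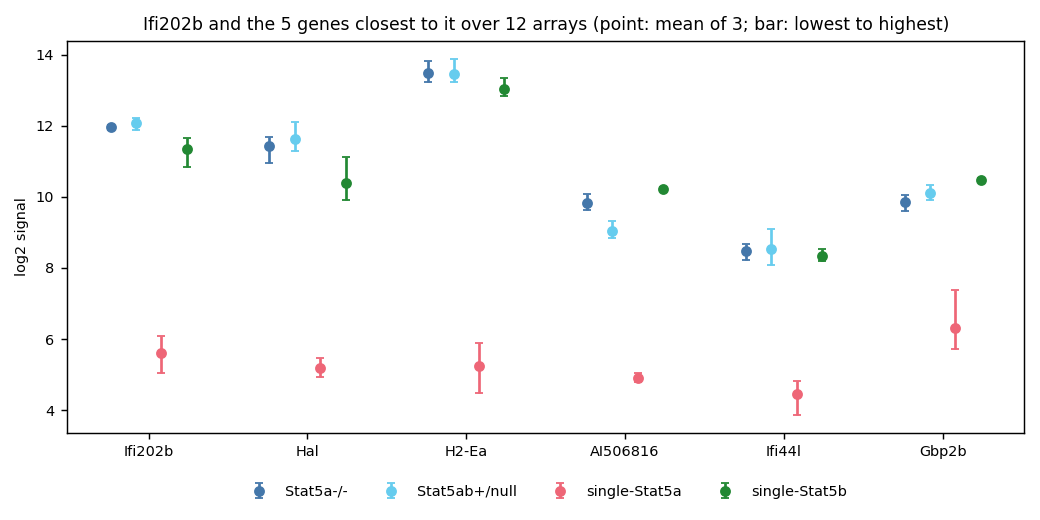
Log2 signal (vertical axis) of Ifi202b and of the 5 genes closest to it over the 12 arrays, by genotype. Points are means of 3 arrays and bars run from the lowest to the highest array. In each gene the single-Stat5a arrays, such as 4.93 to 5.48 for Hal, lie below every array of the other genotypes.

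The comparison of arrays labelled Stat5a-/- with Stat5ab+/null was not used to choose the family, and there no member passed the test. None of the 12 members was called, where 0.00666% of all probe sets (3 of 45037) were. Of the members, 1 had an unadjusted limma p under 0.05, against 3.17% of all probe sets, and 2 had groups that did not overlap, against 17.0%. Differences ran from -0.37 to 0.75, with 5 above 0, 7 below and a median of -0.07 (-0.03 over all probe sets). Ifi202b differed by -0.12 on 1421551_s_at (SE 0.26, 95% interval -0.69 to 0.46) and by 0.18 on 1457666_s_at (SE 0.21, interval -0.29 to 0.64). A difference of the size seen between the single-allele genotypes lies outside both intervals.

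Ifi204 was the member with the lowest p in that comparison. Its log2 signals were 7.83, 7.77 and 7.38 in the arrays labelled Stat5a-/- and 7.12, 6.90 and 6.70 in Stat5ab+/null arrays. The groups did not overlap, and the Stat5a-/- mean was higher by 0.75 (SE 0.24, 95% interval 0.23 to 1.27, 1.68-fold). The unadjusted limma p was 0.00849 and the adjusted p 1.0. With array weights the difference was 0.78 with an adjusted p of 0.037, the only alternative that called it. Over the other alternatives the adjusted p ran from 0.268 to 1.0. The direction goes with arrays whose Stat5a and Stat5b signals went against their labels, as given above.

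The other members were closer together between these genotypes. Mndal on 1426906_at had 3.11, 3.01 and 3.00 in Stat5a-/- and 3.29, 3.76 and 3.17 in Stat5ab+/null arrays. These did not overlap but differed by only -0.37 (SE 0.22, limma unadjusted p = 0.116). Aim2 had 5.23, 5.08 and 5.73 against 5.45, 5.89 and 5.42, a difference of -0.24 (SE 0.25, 95% interval -0.78 to 0.30). The 4 Ifi203 probe sets differed by 0.02, -0.12, -0.19 and 0.11, Mndal on 1452231_x_at by -0.08, and the Ifi205 probe sets by 0.23 and -0.05. Of the 43 neighbours none was called, where 0.00550% of all genes were. An unadjusted limma p under 0.05 was found for 2 of them, against 3.27% of all genes. Of their 65 probe sets, 15 did not overlap (23.1%, against 17.0% of all probe sets).

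Across the array sets, several members stood much higher in the single-allele arrays whatever the intact allele. Mndal on 1426906_at ranged from 3.00 to 3.76 in the 6 arrays of the 2-allele set and from 9.32 to 10.18 in the 6 single-allele arrays, a difference of means of 6.47. Ifi203 on 1448775_at went from 6.00 to 6.46 in the former and from 10.91 to 11.57 in the latter, a difference of 5.08. Mndal on 1452231_x_at differed by 3.22, Ifi204 by 2.28 (6.70 to 7.83 against 8.85 to 9.90) and Aim2 by 1.94 (5.08 to 5.89 against 6.78 to 7.85). Ifi207 differed by 2.07 (7.52 to 8.39 against 9.67 to 10.52).

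Of the 12 members, 6 did not overlap between the sets, where 48.8% of all probe sets did not. In 5 of them the single-allele arrays were higher (24.1% of all probe sets), and in 1, Ifi202b on 1421551_s_at, they were lower. Apart from Ifi202b, 3 members had a step over 3 on the log2 scale, as had 2.87% of all probe sets. The shared Ifi205 probe sets differed little between sets, by 0.21 and 0.07. Array set, RNA or labelling quality, and number of alleles cannot be told apart in these differences.

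The pathways around the family were described from lists of related genes with 1 probe set per gene. Any family member on a list was left out, measured or not. For DNA sensing and the inflammasome, 15 of 19 listed genes were used, and none was called by limma between the single-allele genotypes. Of these 15, 2 had an unadjusted p under 0.05 (11.8% of all genes) and 6 were above 0. The median was -0.08 (-0.01 over all genes). The largest differences were those of the nucleic acid sensor Zbp1 (-0.92, SE 0.34, limma adjusted p = 0.266) and the inflammasome adaptor Pycard (-0.72, SE 0.36, limma adjusted p = 0.448). For interferon signalling, 16 of 17 genes were used and none was called by limma, with 3 at an unadjusted p under 0.05 and a median of -0.18. The largest differences were in Usp18, an inhibitor of the interferon receptor (-0.88, SE 0.38), and the transcription factor Irf7 (-0.82, SE 0.29).

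For the interferon response, 22 of 24 genes were used, 1 was called, and it was lower in single-Stat5b. This was Ifit3, an interferon-induced antiviral gene, at 10.82 in single-Stat5a and 9.55 in single-Stat5b, a difference of -1.27 (SE 0.19, limma adjusted p = 0.0017). On this list 2 genes were above 0, the median was -0.62, and 8 genes did not overlap, against 11.4% of all genes. At an unadjusted limma p under 0.05 there were 13 of the 22, against 11.8% of all genes. Its mean per array was 9.68 to 10.05 in single-Stat5a and 8.93 to 9.65 in single-Stat5b arrays. The number called over the 3 lists rose from 1 to 2 and to 9 without single-Stat5b array 2 and array 3, and to 4 with array weights.

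Between the arrays labelled Stat5a-/- and Stat5ab+/null no gene of the 3 lists was called by limma, where 0.00550% of all genes were. At an unadjusted p under 0.05 there was 1, on the interferon signalling list, against 3.27% of all genes. The medians were -0.21 for DNA sensing and the inflammasome, -0.15 for interferon signalling and -0.14 for the interferon response, against -0.06 over all genes. The 2 largest differences of each list were those of Pycard (-0.67, SE 0.36) and Sting1 (-0.48, SE 0.31) for DNA sensing and the inflammasome, of the transcription factors Irf2 (-0.87, SE 0.25) and Irf8 (-0.65, SE 0.59) for interferon signalling, and of Bst2 (-0.54, SE 0.32) and Cmpk2 (0.34, SE 0.28) for the interferon response.

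Markers of the cells that could carry family transcripts were read in the same arrays, and none of their genes was called by limma in either comparison within a set. At an unadjusted limma p under 0.05 each list had 0 to 2 genes in the 2-allele set (3.27% of all genes). In the single-allele set each had 0 to 4 (11.8% of all genes). The 4 were on the endothelium list of 7 measured genes, where 4 genes also did not overlap (11.4% of all genes). Its median difference was -0.58, with means of 9.77 to 10.0 in single-Stat5a and 9.32 to 9.63 in single-Stat5b arrays. The part of endothelium in any result was not tested. The macrophage and monocyte list had means of 10.42 to 11.33 in single-Stat5b arrays and 10.84 to 11.07 in single-Stat5a arrays, against 10.78 to 11.11 where the label is Stat5a-/- and 10.83 to 11.23 where it is Stat5ab+/null. These overlap in all 4 genotypes. The dendritic cell list was at 7.35 to 7.60 in single-Stat5a and 7.22 to 7.85 in single-Stat5b, and the T cell list at 7.39 to 7.61 and 7.03 to 8.36. The defining markers Pax5 (B cells), Cd8b1 and Cd5 (T cells) and Xcr1 (dendritic cells) had means below the 30th percentile. The Ifi202b difference on 1421551_s_at (5.75) was 5.86 with the macrophage and monocyte mean as a covariate, 5.77 with the B and plasma cell mean and 5.82 with the actin 3' minus 5' signal. These are given as values only, and the part of cell content or RNA quality in the Ifi202b result was not tested. The luminal epithelial list, which marks the tissue itself, had means of 10.46 to 10.89 in the 3 single-Stat5a arrays, below every other array. It was at 10.91 to 11.24 with a single Stat5b allele, and at 11.11 to 11.19 and 11.23 to 11.39 in the arrays labelled Stat5ab+/null and Stat5a-/-. The arrays low for Ifi202b were therefore also the lowest for this list, and its part in the Ifi202b result was not tested. The adipocyte list was at 12.73 to 13.03 and 12.04 to 12.75 in these single-allele groups and at 13.36 to 13.82 in the 2-allele set.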

How the data were processed

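Total RNA of whole mammary tissue was labelled as biotin-cRNA and hybridized to Affymetrix arrays, per the labels' protocols. The values are log2 signals per probe set, deposited by the authors in 1 table of 12 arrays. Per the submitters' processing notes RMA and Partek were used, and no version is given in the sources used here. Medians of the arrays were 7.28 to 7.50.

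Genotypes came from the labels, and replicates were numbered in record order. P-values rest on the spread among mice of the same genotype, 3 a group. That spread was 1 estimate per probe set over all 4 genotypes, so both array sets enter every p-value and SE. With only the groups compared, calls between the single-allele genotypes went from 1217 to 545. The table held 45101 probe sets, of which 64 controls were left out. Platform symbols named 1 gene for 34945 probe sets (34754 matched to a RefSeq gene table of GRCm38.p6, which gave gene order), several for 932 and none for 9160. All 45037 were fitted in limma 3.58.1 (R 4.3.3) without a filter on low signal, with 1 mean per genotype, eBayes and 2-sided tests. P-values were adjusted by Benjamini-Hochberg over all probe sets, with a call under 0.05. On simulated data for single-Stat5b minus single-Stat5a, with 200 probe sets changed at each size, log2 changes of 1, 2 and 4 were called in 52.0%, 96.0% and 99.5%. The simulated noise of a probe set had the same spread in every array. Real groups can differ in spread, as for Slamf8 (SD 0.05 in single-Stat5a and 0.96 in single-Stat5b), so these shares need not hold for the real arrays. Where a gene has 1 value, it is that of its brightest probe set naming it alone (18193 genes).

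The members and all lists were chosen with earlier results of these data known. Genes named were every member, the called neighbours and the nearest on each side, up to 4 called genes of each pathway list or else its 2 largest differences, and the 5 genes closest to Ifi202b. Casq1, Ifi207 and both probe sets of Ifi209 were added after their values were seen. Alternatives were filters at the 30th and 50th percentile, quantile normalization, median centring, 1 probe set per gene, trended robust variance, array weights, only the groups compared, 3 covariates, a threshold of 0.01 and leaving out each array. Promoter windows and motif matches came from RefSeq with Python 3.11.15.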

Additional observations from a re-analysis of the deposited data

How the results depend on the processing

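No paired analysis was possible because the labels carry no replicate numbers shared between the genotypes. The Ifi202b difference between the single-allele genotypes ranged from 5.33 (array weights) to 5.86 on 1421551_s_at and from 7.78 to 7.92 on 1457666_s_at, and from 5.48 to 6.00 and 7.73 to 8.07 when single arrays were left out. As a description only, members past the threshold in that comparison went from 3 to 1 with 1 probe set per gene, which leaves fewer probe sets. Over all probe sets the number went from 1217 to 400. Nothing is read from the member counts, since the comparison chose the family. Members called between Stat5a-/- and Stat5ab+/null went from 0 to 1 with array weights. The 2 called neighbours became 1 with the filter at the 30th percentile, 0 at the 50th, 1 with only the groups compared and 1 at an adjusted p under 0.01, and 1 to 5 with single arrays left out. The same settings gave 1, 0, 1 and 1 called genes in the windows that hold them, and 1 to 6 with single arrays left out. The single gene called on the pathway lists became 4 with array weights and 1 to 9 with single arrays left out.

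Small differences between Stat5a-/- and Stat5ab+/null changed sign. With array weights, 1451567_a_at (0.11) was -0.0022. Probe set 1452349_x_at (-0.05) was 0.02 after quantile normalization and 0.0047 with the macrophage mean as a covariate. With single arrays left out, Ifi203 1442828_at ran from -0.06 to 0.09, 1451567_a_at from -0.05 to 0.33 and 1452349_x_at from -0.11 to 0.02, and between the single-allele genotypes Cadm3 1418921_at ran from -0.19 to 0.48. Other small differences between the single-allele genotypes also turned. Over the settings 1452348_s_at (-0.14) ran from -0.62 to 0.03 and 1448775_at (0.10) from -0.14 to 0.18. With single arrays left out they ran from -0.50 to 0.17 and from -0.03 to 0.30, and Mndal 1452231_x_at (0.52) from -0.35 to 0.97. The cause was not tested in any of these. Over all probe sets, calls between the single-allele genotypes numbered 1217, with 400 for 1 probe set per gene, 534 above the 50th percentile, 545 with only the groups compared, 683 under 0.01, and 2740 without single-Stat5b array 3. Between Stat5a-/- and Stat5ab+/null they numbered 3, with 346 under array weights, 1 for 1 probe set per gene, 5 with only the groups compared or the macrophage mean, and 0 with the B cell mean or under 0.01. The number of arrays, 3 a group, limits the precision of every value.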
